A study of Homo sapiens with 8 samples.

Results

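The guanylate-binding proteins (GBPs) are large GTPases of cell-autonomous defence. Their genes were followed in BE(2)-M17, an established human neuroblastoma line, with and without interferon-γ (IFN-γ), the cytokine that T cells and natural killer cells release. The family was taken as the rows named GBP1, GBP2, GBP3, GBP4, GBP5, GBP6 and GBP7 and the pseudogene GBP1P1, which made 8 of the 26372 gene symbols in the deposited table. All 8 were found. 6 of them had a mean of at least 0.5 FPKM over all libraries, the level required for testing, as had 13598 symbols in all. The 6 members reached that level only through the IFN-γ libraries, so each of them had to differ between the groups. GBP6 and GBP7 lay below it.

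The study compared M17 cells given IFN-γ at 10 ng/ml for 24 h, 4 libraries, with M17 cells left untreated, 4 libraries. No genetic change was named in either group, and both groups are a single line in culture. RNA depleted of ribosomal RNA was sequenced as read pairs. Nothing in the labels ties the libraries to separate cultures. P-values therefore reflect how far these libraries varied, possibly for technical reasons alone. Values are FPKM, fragments per kilobase of transcript scaled to the fragments mapped, so levels of different genes can be set side by side per length. In bulk RNA, fewer cells that make a transcript and less of it per cell cannot be told apart.

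IFN-γ reaches its targets through receptor-bound JAK kinases, and part of the response runs through gamma-activated sites in promoters. IRF1, itself induced by IFN-γ, binds interferon-stimulated response elements and carries much of the later transcription of GBP genes. The proteins hydrolyse GTP, assemble into polymers, and coat bacteria, parasite vacuoles and other targets in the cytosol. GBP1, GBP2 and GBP5 end in a CaaX box, a signal for attachment of a lipid anchor.

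The libraries differed in depth by less than 2-fold. From the steps between low values, 1 fragment on a transcript of 1 kb was worth 0.05 to 0.0709 FPKM, which corresponds to about 14.1 to 20.0 M fragments per library, with M for mega. IFN-γ replicate 4 stood apart: the variance between libraries was 3.43 to 3.78 times the counting variance in the pairs with it, and 1.76 to 2.38 times in all other pairs within a group. Of 13 markers of noradrenergic neuroblastoma, 12 averaged at least 1 FPKM. The 12 leukocyte markers summed to 0.636 to 1.21 FPKM in IFN-γ libraries and 0.574 to 0.732 FPKM in untreated libraries, with CD3E, CD3D, CD2 and MS4A1 among those at 0 throughout. The 8 endothelial markers summed to 0.458 to 1.06 FPKM with IFN-γ and 0.807 to 0.892 FPKM without it. The 10 fibroblast and epithelial markers summed to 183 to 238 FPKM with IFN-γ and 165 to 175 FPKM without it. DCN, LUM and PDGFRB made up nearly all of these sums. The other markers of that list, among them COL1A2, COL3A1 and EPCAM, did not exceed 0.453 FPKM in any library. The part of these markers in the results was not tested.

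The family is one block of genes on chromosome 1. In GENCODE release 29 on GRCh38 the block ran from 89006666 to 89426243, a span of 420 kb, with GBP3, GBP1, GBP2, GBP7, GBP4 and GBP5 on the reverse strand, followed by GBP6 and GBP1P1 on the forward strand. GBP1 covered bases 89052319 to 89065360 and GBP2 bases 89106132 to 89150456. GBP7 overlapped GBP2 by 18706 bases on the same strand. GBP1P1, at 89407679 to 89426243, was annotated as a transcribed unprocessed pseudogene.

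Promoter sequence is shown for GBP1, which had the largest change, for GBP3 and GBP4, and for GBP7, which stayed low. The RefSeq windows on GRCh38.p14, from 250 bases before to 50 bases after each gene's start, were at chr1:89065159-89065458 for GBP1, chr1:89022817-89023116 for GBP3, chr1:89198893-89199192 for GBP4 and chr1:89175954-89176253 for GBP7, all on the reverse strand. They are written 5′ to 3′ along the gene. Capitals mark the interferon-stimulated response element, searched as GAAA, any 2 bases and GAAA, and the gamma-activated site, searched as TTCNNNGAA, each on both strands. The window of GBP6 was searched but is not printed, and no window was at hand for GBP2, GBP5 and GBP1P1.
GBP1 promoter window: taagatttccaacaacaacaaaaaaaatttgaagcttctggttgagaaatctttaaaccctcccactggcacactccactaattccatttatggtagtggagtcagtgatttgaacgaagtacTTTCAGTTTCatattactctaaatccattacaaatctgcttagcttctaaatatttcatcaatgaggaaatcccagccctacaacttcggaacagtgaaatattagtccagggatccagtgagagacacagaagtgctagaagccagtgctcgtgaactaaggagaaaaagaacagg
GBP3 promoter window: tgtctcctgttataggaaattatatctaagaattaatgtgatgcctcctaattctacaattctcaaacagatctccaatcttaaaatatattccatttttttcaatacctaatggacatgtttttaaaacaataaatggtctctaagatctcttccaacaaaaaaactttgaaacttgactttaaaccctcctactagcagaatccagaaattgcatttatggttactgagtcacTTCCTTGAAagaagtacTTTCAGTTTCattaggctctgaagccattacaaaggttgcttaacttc
GBP4 promoter window: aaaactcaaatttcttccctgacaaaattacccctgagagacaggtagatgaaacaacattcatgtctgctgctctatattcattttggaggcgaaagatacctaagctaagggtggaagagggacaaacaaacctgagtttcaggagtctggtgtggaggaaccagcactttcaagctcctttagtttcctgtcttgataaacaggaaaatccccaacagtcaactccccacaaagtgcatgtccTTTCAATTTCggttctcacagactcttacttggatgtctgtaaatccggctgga
GBP7 promoter window: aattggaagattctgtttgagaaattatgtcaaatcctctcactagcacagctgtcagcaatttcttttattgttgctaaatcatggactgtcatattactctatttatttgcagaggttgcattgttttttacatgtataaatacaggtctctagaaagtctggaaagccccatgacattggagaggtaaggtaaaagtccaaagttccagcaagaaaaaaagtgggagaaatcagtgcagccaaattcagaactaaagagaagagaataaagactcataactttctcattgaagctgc

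Response element letters were found in 3 of the 5 member windows searched, those of GBP1, GBP3 and GBP4, and not in those of GBP6 and GBP7. Among 35116 promoter windows of the same length in RefSeq, 3.57% held the response element and 7.66% the gamma-activated site. In each of the 3 members the element lay on the strand opposite the gene. Counted from the RefSeq start site, it covered bases -127 to -118 in GBP1, 3 to 12 in GBP3 and -4 to 6 in GBP4. The GENCODE start of GBP1, base 89065360, lies upstream of the RefSeq start. By the GENCODE start the GBP1 element falls inside the gene. GBP1 and GBP3 held the same 10 letters, TTTCAGTTTC on the gene's strand, and GBP4 held TTTCAATTTC. The gamma-activated site was found in GBP3, at bases -15 to -7, and did not overlap the response element there. GBP1 and GBP3 shared an unbroken run of 19 bases around the element, gaagtactttcagtttcat, and matched at 122 of 140 aligned bases (87.1%). GBP7 matched GBP1 at 56 of 70 aligned bases (80.0%), in a stretch that included tcatattactcta, the 13 bases shared without a break. A match of letters is a description of these windows and no evidence of binding. A window without a match can still hold a site with other letters, so a miss is no evidence of absence.

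GBP RNA was abundant with IFN-γ and near the detection limit without it. The FPKM of the 8 members summed to 978.1, 995.2, 982.2 and 1020.4 in the IFN-γ libraries, against 0.730, 0.420, 0.529 and 0.477 in the untreated libraries. Every IFN-γ library lay above every untreated library in all 8 members; among all 20025 genes above 0 in any library, 11.8% had that pattern, and 15.4% of the tested genes had it. All 6 tested members were called higher by limma, a linear model with shared variance estimates over all genes, at a Benjamini-Hochberg adjusted p of 0.05. Of all tested genes, 13.3% were called higher and 9.05% lower. The 6 members reached the test only through the IFN-γ libraries, so their calls are no independent evidence of a rise. An exact permutation test of each member (two-sided) reached p = 0.0286 in every case, the floor set by the 70 arrangements of 4 against 4 libraries.

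**Figure D1:**
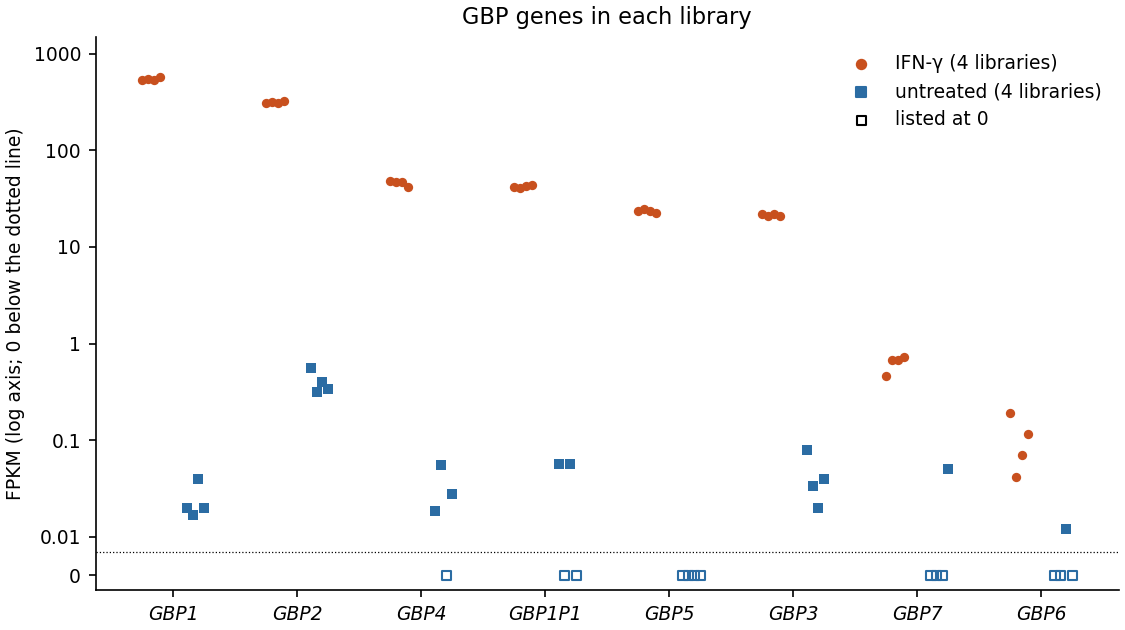
FPKM of each GBP gene in each library on a log axis, with IFN-γ libraries as circles and untreated libraries as squares to their right; values listed at 0 are open squares below the dotted line. With IFN-γ the genes spread from 0.0417 FPKM for GBP6 to 568 FPKM for GBP1, and no untreated value exceeded the 0.555 FPKM of GBP2.

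The scale of the log2 changes depends on the constant added to low values. Changes are given as log2(FPKM + 0.1), which understates the change of a gene near 0, with the standard error (SE) of the limma fit. With 0.01 in place of 0.1, the GBP1 change was 14 instead of 12.11, and with 1 it was 9.06. Over all 20 settings tried, the 6 members were called higher, and GBP1 ranked 1 or 2 of all tested genes. Where a filter was applied, the members passed it only through the IFN-γ libraries, so unchanged calls add no support. In the deposited values with 0.1 added, the 30 largest rises, down to a log2 change of 6.88, included all 6 members. Over the settings GBP3 ranked from 26 to 37 and GBP5 from 12 to 33.

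GBP1 starts the coat on Gram-negative bacteria, where it binds lipopolysaccharide and gathers other members. GBP1 was at 533, 542, 540 and 568 FPKM in the IFN-γ libraries, against 0.0198, 0.0167, 0.0397 and 0.0197 FPKM in the untreated libraries. The untreated values stand for about 1, 1, 2 and 1 fragments, and the IFN-γ values for 23185 to 34478 fragments. Its mean was thus 546 ± 15.5 FPKM with IFN-γ and 0.0240 ± 0.0106 FPKM without it (SD, n = 4 each). With IFN-γ, GBP1 had the 129th highest mean level among the tested genes. The log2 change of 12.11 (SE 0.07, limma adjusted p = 1.25e-14) was the largest rise of the 13598 genes. From the 5 untreated fragments, with an exact Poisson 95% interval of 1.62 to 11.7, the fold of IFN-γ over untreated was 22475. This fold differs slightly from the ratio of the FPKM means, and its counting interval was 9631 to 69218. That interval covers counting error only.

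GBP2, which is geranylgeranylated and with GBP5 inhibits the protease furin in human cells, was the one member above trace level without the cytokine. GBP2 was at 309, 319, 306 and 322 FPKM with IFN-γ, against 0.555, 0.314, 0.400 and 0.340 FPKM untreated. The groups were far apart and the IFN-γ libraries differed from each other by little, with a coefficient of variation of 2.44%. Means were 314 ± 7.67 FPKM with IFN-γ and 0.402 ± 0.108 FPKM without it (SD, n = 4 each), a ratio of 780. Its log2 change was 9.31 (SE 0.12, limma adjusted p = 3.96e-12), rank 6 of the tested genes, between APOL1 and APOL6. The rank ran from 4 to 22 over the settings, and 22 was its place with a constant of 0.01.

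GBP3 and GBP4 join the coat that GBP1 starts and promote caspase-4 activation there in human cells. GBP4 was at 47.9, 46.9, 47.4 and 42.1 FPKM with IFN-γ, against 0.0187, 0.0556, 0 and 0.0280 FPKM untreated. The groups did not overlap, and IFN-γ replicate 4 was the lowest of its group. GBP4 changed by 8.54 (log2, SE 0.13, limma adjusted p = 1.48e-11), rank 13. GBP3 was at 21.8, 20.7, 21.9 and 20.8 FPKM with IFN-γ, against 0.0793, 0.0336, 0.0199 and 0.0395 FPKM untreated. It gave the smallest change of the tested members, 7.24 (log2, SE 0.13, limma adjusted p = 5.24e-11), rank 27, between IFI27 and HLA-DRB1.

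GBP5, which promotes inflammasome assembly and limits the infectivity of HIV particles, was listed at 0 in all 4 untreated libraries. With IFN-γ it was at 23.6, 24.9, 23.4 and 22.4 FPKM. GBP5 was the one member listed at 0 in every untreated library, so no ratio is given. On the log2 scale its change was 7.89 (SE 0.10, limma adjusted p = 2.89e-12), rank 20. An antisense transcript overlaps GBP5 by 9173 bases in GENCODE and was no row of the table. The library kit does not mark strand, so reads of the pair cannot be told apart, and the same holds for an antisense transcript that overlaps GBP4 by 219 bases.

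GBP1P1, the pseudogene that RefSeq also lists as LIMIT, rose with its coding relatives. It was at 41.9, 40.7, 42.4 and 44.1 FPKM with IFN-γ, against 0.0566, 0, 0.0571 and 0 FPKM untreated. With IFN-γ the pseudogene lay above GBP5 and GBP3 in level, and the untreated values stand for at most 2 fragments. Its log2 change was 8.40 (SE 0.17, limma adjusted p = 1.04e-10), rank 15, between HLA-B and IFI44. The ratio of GBP1 to GBP1P1 was 12.7, 13.3, 12.7 and 12.9 in the IFN-γ libraries.

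GBP6 and GBP7 stayed low, and both varied more than the others. GBP7 was at 0.466, 0.672, 0.671 and 0.722 FPKM with IFN-γ, against 0, 0, 0 and 0.0501 FPKM untreated. GBP6 was at 0.190, 0.0417, 0.0708 and 0.115 FPKM with IFN-γ, against 0, 0, 0.0120 and 0 FPKM untreated. The groups did not overlap in either gene. The coefficient of variation with IFN-γ was 18% for GBP7 and 61.9% for GBP6, against 2.44 to 5.79% for the 6 tested members. When every gene above 0 was tested, limma called both higher, GBP7 with a log2 change of 2.71 (SE 0.20, adjusted p = 1.61e-05) and GBP6 with 0.94 (SE 0.21, adjusted p = 0.0176), where 9.29% of 20025 genes were called higher. In that ranking GBP7 was 179th and GBP6 673rd. GBP7 shared 20.5% of its windows of 150 bases with GBP2, and the part of GBP2 reads in its values was not tested. The IFN-γ values of GBP6 stand for about 2 to 10 fragments, and those of GBP7 for about 21 to 35. Those of each tested member stand for about 706 or more. The part of counting error in the larger variation of GBP6 and GBP7 was not tested.

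**Figure D2:**
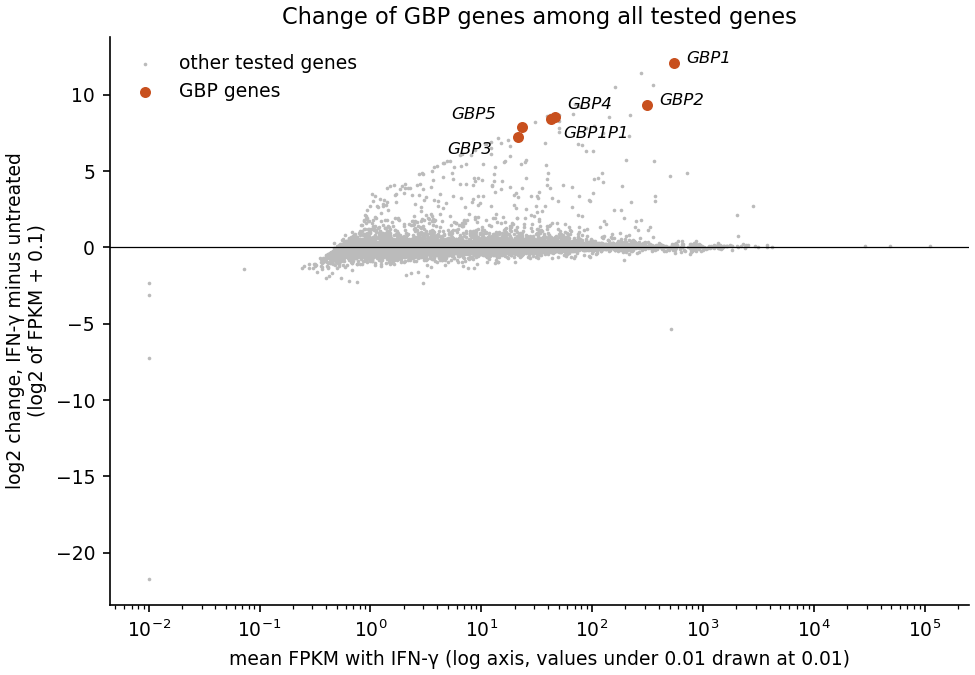
Log2 change, IFN-γ minus untreated, of all 13598 tested genes against their mean FPKM with IFN-γ on a log axis, with the 6 tested GBP genes in orange. The GBP genes lie between 7.24 and 12.11 at the upper edge of the cloud, and GBP1 is the highest point.

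The members kept one order in nearly every IFN-γ library. By FPKM the order was GBP1, GBP2, GBP4, GBP1P1, GBP5, GBP3, GBP7 and GBP6. Neighbours in it did not overlap except GBP4 and GBP1P1. GBP4 was 1.14, 1.15 and 1.12 times GBP1P1 in IFN-γ replicates 1, 2 and 3 but 0.954 times in replicate 4. Without IFN-γ replicate 4 the log2 changes were 12.1 for GBP1, 9.30 for GBP2, 7.25 for GBP3, 8.58 for GBP4, 7.91 for GBP5 and 8.38 for GBP1P1.

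The mix of GBP transcripts also differed, with mostly GBP1 in IFN-γ libraries and mostly GBP2 in untreated libraries. GBP1 held 54.4 to 55.7% of the summed family FPKM in the IFN-γ libraries, against 2.71 to 7.51% in the untreated libraries. GBP2 held 31.2 to 32.1% with IFN-γ, against 71.2 to 76.1% untreated. The ratio of GBP1 to GBP2 was 1.73, 1.70, 1.76 and 1.77 with IFN-γ, against 0.0356, 0.0534, 0.0992 and 0.0579 untreated. GBP1 exceeded GBP2 in every IFN-γ library and in no untreated library. GBP4 held 4.13 to 4.90% with IFN-γ, GBP1P1 4.09 to 4.33%, GBP5 2.19 to 2.50% and GBP3 2.04 to 2.23%. In untreated libraries GBP2 rests on about 20 to 33 fragments, and each other member on at most 7.

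**Figure D3:**
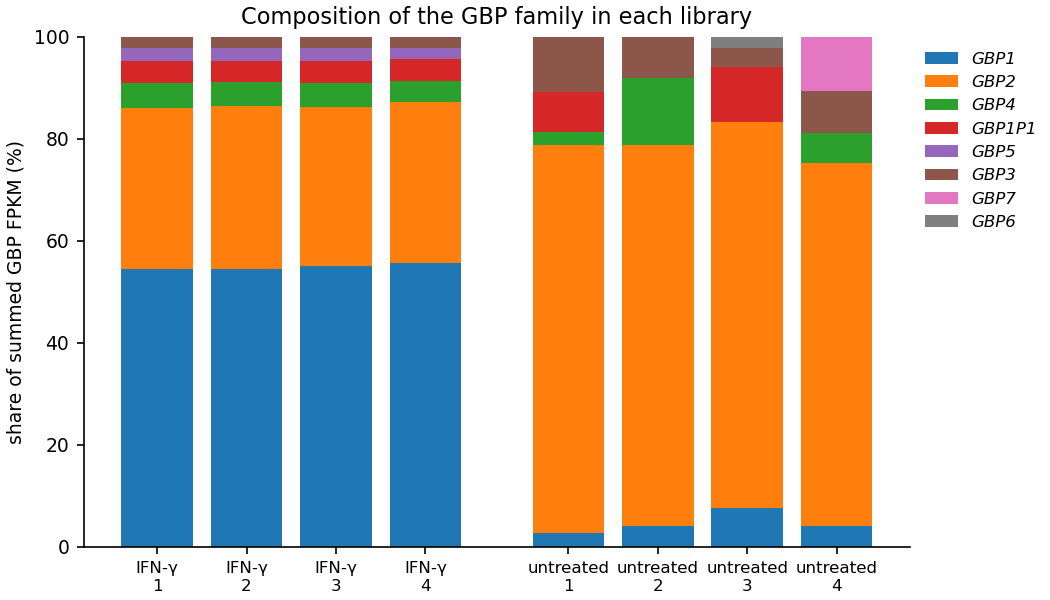
Share of the summed GBP FPKM held by each member, 1 bar per library, with IFN-γ libraries left of untreated libraries. The IFN-γ bars are nearly the same, with GBP1 at 54.4 to 55.7%, while in the untreated bars GBP2 holds 71.2 to 76.1%.

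GBP genes are alike in sequence, but few stretches as long as a read were shared without a mismatch. Coding sequences of GBP1 and GBP3 were identical at 91.6% of aligned bases, and those of GBP4 and GBP7 at 85.5%. GBP1, GBP2, GBP3 and GBP5 matched each other at 74.1 to 91.6%, GBP4, GBP6 and GBP7 at 77.4 to 85.5%, and members of different groups at between 65.8% (GBP3 with GBP6) and 1242 of 1774 aligned bases (GBP3 with GBP7). GBP1P1 matched the GBP1 coding sequence at 90.7% of 1698 aligned bases. At 150 bases, the length of a read, no window of a GBP1, GBP3, GBP4, GBP5, GBP6 or GBP1P1 transcript recurred without a mismatch in another member. GBP7 shared 20.5% of its windows with GBP2, through 1 of the 4 annotated GBP2 transcripts. At 50 bases, 10.9% of GBP1 windows recurred in GBP1P1, 3.11% in GBP3, and none of GBP5 or GBP6 in any member. How the counting divided such reads was not given, and its part in the GBP7 values was not tested.

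**Figure D4:**
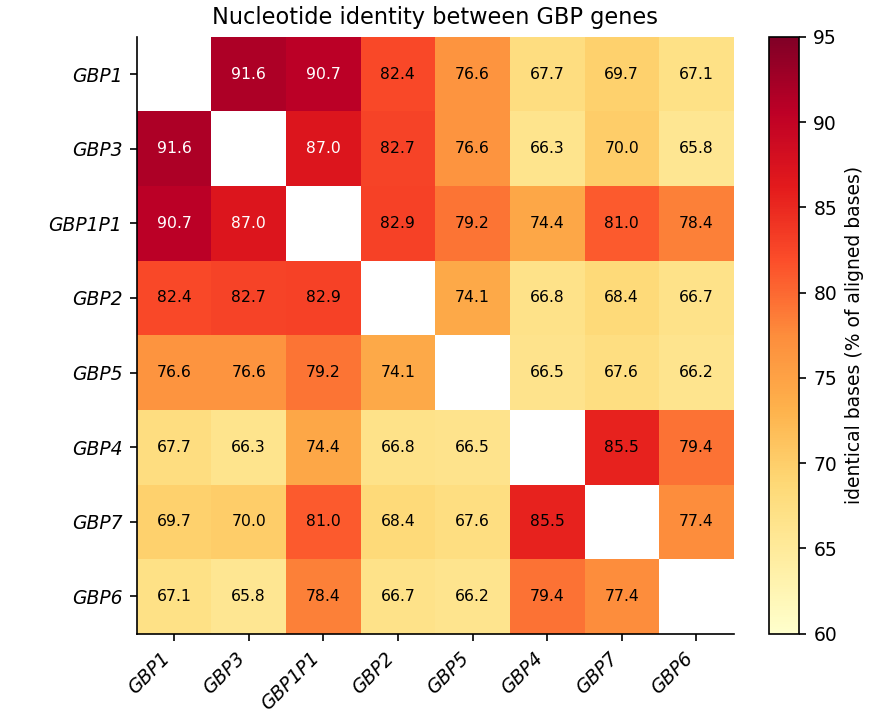
Identical bases, in percent of aligned bases, between each pair of GBP genes, over whole coding sequences or, for GBP1P1, over the best local alignment of its transcript. GBP1 with GBP3 is the closest pair at 91.6%, and GBP4, GBP7 and GBP6 form a group of their own at 77.4 to 85.5%.

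Among the tested genes beside the cluster, the pair next to GBP3 changed most. RBMXL1, an RNA-binding protein gene, was at 42.0, 44.4, 42.9 and 42.8 FPKM with IFN-γ, against 14.8, 14.5, 14.2 and 14.1 FPKM untreated. CCBL2, a kynurenine aminotransferase listed as KYAT3 in the annotation, was at 45.1, 47.6, 49.1 and 56.9 FPKM with IFN-γ, against 21.6, 20.7, 21.8 and 21.1 FPKM untreated. Neither gene's groups overlapped. RBMXL1 rose 2.99-fold (log2 change 1.57, SE 0.04, limma adjusted p = 3.13e-10) and CCBL2 2.33-fold (log2 change 1.21, SE 0.07, limma adjusted p = 3.24e-07). Their start sites lie at -72.4 kb from that of GBP1 along the chromosome, and the genes overlap by 13498 bases on one strand. With 15.0% of CCBL2 windows of 150 bases and 5.84% of RBMXL1 windows shared, their values are not independent. RefSeq gives both genes the same promoter window, in which neither motif was found.

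Of 12 tested neighbours of the cluster, 5 were called higher and 1 lower, beside 13.3% and 9.05% of all tested genes. Their median log2 change was 0.18, against a median of -0.0047 over all tested genes. LRRC8B, a subunit of volume-regulated anion channels, was at 19.2 ± 0.863 FPKM with IFN-γ and 15.4 ± 0.345 FPKM without it (SD, n = 4 each), a log2 change of 0.31 (limma adjusted p = 6.37e-04). PKN2, a protein kinase, was at 20.0 ± 0.679 FPKM with IFN-γ and 17.0 ± 0.503 FPKM without it, a log2 change of 0.23 (limma adjusted p = 0.00286). ZNF326, a zinc finger protein, was at 32.6, 32.4, 32.8 and 31.5 FPKM with IFN-γ, against 27.3, 28.4, 31.1 and 29.4 FPKM untreated, a log2 change of 0.16 (limma adjusted p = 0.0306). In TPM without short RNA genes (TPM is FPKM rescaled to a fixed sum per library) the calls of LRRC8B (adjusted p = 0.0684), PKN2 (adjusted p = 0.178) and ZNF326 (adjusted p = 0.508) were lost. The ZNF326 call was also lost when any one of IFN-γ replicates 1, 2 and 3 or untreated replicates 1, 2 and 4 was left out (adjusted p = 0.0629 to 0.0889). LRRC8C, a related channel subunit, was the one called lower, at 9.04 ± 0.430 FPKM with IFN-γ and 10.6 ± 0.417 FPKM without it (log2 change -0.23, limma adjusted p = 0.0105), although in TPM its change was 0.57, where the median of all genes was shifted by 0.79.

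SEP15, a selenoprotein, HS2ST1, a heparan sulfate sulfotransferase, LMO4, a LIM-only transcription cofactor, GTF2B, a general transcription factor, LRRC8D, a further channel subunit, and HFM1, a meiotic helicase, were not called. Their log2 changes were 0.20, -0.06, 0.16, 0.16, 0.08 and 0.33 in that order. SEP15 was called higher without IFN-γ replicate 4 (log2 change 0.11, limma adjusted p = 0.0122) and GTF2B without IFN-γ replicate 3 (log2 change 0.22, limma adjusted p = 0.0424). BARHL2, a homeobox gene, was at 0 in all 8 libraries.

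**Figure D5:**
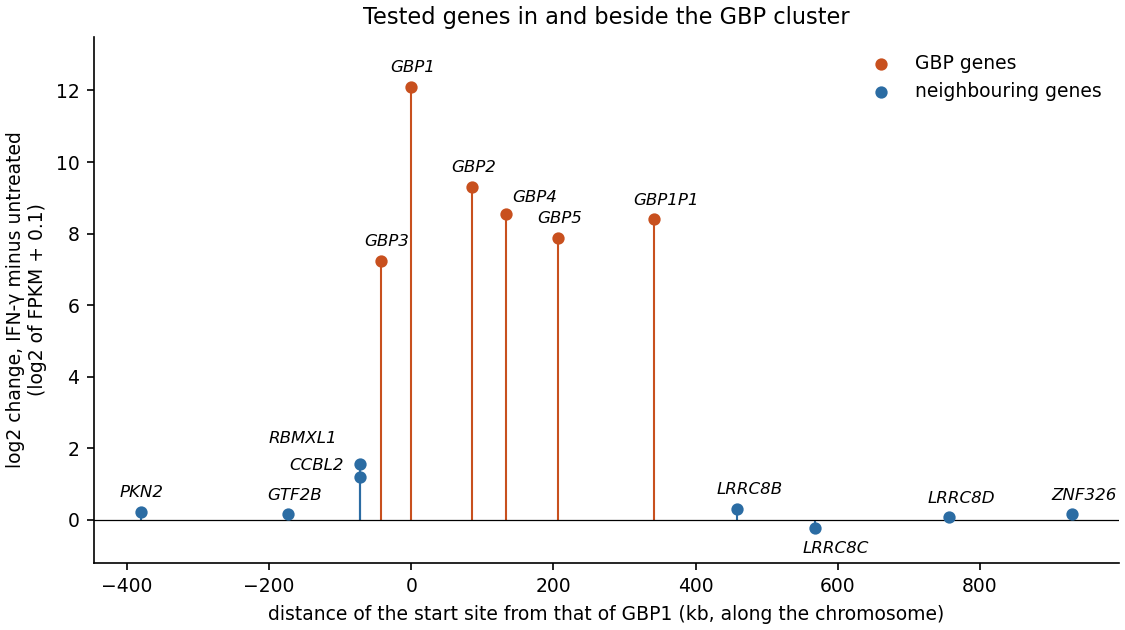
Log2 change, IFN-γ minus untreated, of tested genes in and beside the GBP cluster, against the distance of their start site from that of GBP1 in kb; more distant neighbours are not drawn. The 6 GBP genes stand at 7.24 to 12.11, RBMXL1 at 1.57 and CCBL2 at 1.21, and the other neighbours lie near 0.

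Most genes that control GBP transcription rose with IFN-γ. Of 12 tested inducers and repressors, 10 were called higher, against 13.3% of all tested genes, and 0 lower, against 9.05%. The median log2 change of the list was 2.30. IRF1, the transcription factor that binds response elements, was at 125 ± 2.14 FPKM with IFN-γ and 0.584 ± 0.0404 FPKM without it (SD, n = 4 each), a log2 change of 7.52 (limma adjusted p = 6.89e-14). JAK2, a kinase bound to the receptor, was at 19.8 ± 0.520 FPKM with IFN-γ and 1.75 ± 0.203 FPKM without it (log2 change 3.43, limma adjusted p = 5.02e-10). SOCS1, which inhibits JAK kinases, was at 18.1 ± 1.72 FPKM with IFN-γ and 0.0845 ± 0.0592 FPKM without it (log2 change 6.67). SOCS1 was the 1 gene of this list that entered the test only through the IFN-γ libraries.

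Genes for proteins that act with or on GBP coats were higher in the greater part. Of 21 tested partners and effectors, 14 were called higher and 0 lower, beside 13.3% and 9.05% over all tested genes. The median log2 change was 2.24, and 5 of the 14 reached the test only through the IFN-γ libraries. The other 5 of the 26 listed genes, CASP5, NLRP3, PYCARD, NLRC4 and SFN, lay below the filter, and their groups overlapped. APOL3, a lipid-binding protein that permeabilises coated bacteria in human cells, was at 24.1, 23.1, 24.7 and 24.5 FPKM with IFN-γ, against 0.0296, 0, 0 and 0 FPKM untreated (log2 change 7.82, limma adjusted p = 1.35e-11). CASP1, the inflammasome protease, was at 5.97, 5.87, 6.52 and 7.52 FPKM with IFN-γ and listed at 0 in all untreated libraries (log2 change 6.03, limma adjusted p = 6.79e-10). ISG15, a ubiquitin-like modifier, was at 37.7 ± 5.72 FPKM with IFN-γ and 0.229 ± 0.0659 FPKM without it. UBE2L6, the enzyme that conjugates it, was at 202 ± 19.3 FPKM with IFN-γ and 3.65 ± 0.339 FPKM without it (SD, n = 4 each). Their log2 changes were 6.86 for ISG15 (limma adjusted p = 4.06e-10) and 5.75 for UBE2L6 (limma adjusted p = 6.63e-12).

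The enzymes that attach and trim the lipid anchor were called in 1 case. Of 9 tested enzymes of CaaX prenylation and processing, 1 was called higher and 0 lower, a share near the 13.3% called higher over all tested genes, and the median log2 change was 0.04. FNTA, a subunit shared by farnesyl and geranylgeranyl transferases, was at 35.4, 34.9, 33.5 and 40.2 FPKM with IFN-γ, against 30.6, 32.4, 31.0 and 31.2 FPKM untreated. The groups did not overlap, and IFN-γ replicate 4 was the highest. FNTA changed by 0.20 (log2, SE 0.06, limma adjusted p = 0.0281). The call was lost without IFN-γ replicate 1 or untreated replicate 1, 3 or 4 (adjusted p = 0.0517 to 0.0771), and under 3 other settings (adjusted p = 0.0565 to 0.118).

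Other large GTPases moved in both directions. Of 11 tested atlastins, Mx proteins and dynamins, 3 were called higher and 1 lower, where 13.3% and 9.05% of all tested genes were, and the median log2 change was 0.05. MX2, an antiviral dynamin-like GTPase, was at 2.14, 2.28, 1.69 and 2.05 FPKM with IFN-γ, against 0.0204, 0.0173, 0.0205 and 0.0203 FPKM untreated (log2 change 4.15, limma adjusted p = 1.00e-07), and entered the test only through the IFN-γ libraries. DNM1L, the GTPase of mitochondrial fission, was at 73.0, 73.9, 74.7 and 78.9 FPKM with IFN-γ, against 46.0, 46.8, 46.2 and 46.9 FPKM untreated (log2 change 0.69, limma adjusted p = 2.20e-07). It had the largest change among the genes of this list that averaged at least 0.5 FPKM without IFN-γ. DNM1, the neuronal dynamin of synaptic vesicle uptake, was at 15.9 ± 0.767 FPKM with IFN-γ and 22.0 ± 1.19 FPKM without it (SD, n = 4 each; log2 change -0.46, limma adjusted p = 1.12e-04), although in TPM its change was 0.34, where the median of all genes was shifted by 0.79. DNM3, a related dynamin, was at 8.44, 8.72, 8.59 and 6.92 FPKM with IFN-γ, against 6.26, 6.98, 6.80 and 6.30 FPKM untreated, with groups that overlapped (log2 change 0.30, limma adjusted p = 0.0227). Its call was lost when IFN-γ replicate 1, 2 or 3 or untreated replicate 1 or 4 was left out (adjusted p = 0.0589 to 0.0668), and in TPM without short RNA genes (adjusted p = 0.211). Of 4 immunity-related and giant inducible GTPases, 1 was tested, and it was not called.

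The genes whose profile was most like that of GBP1 over the 8 libraries were WARS, CXCL9, FAM155A, IFIH1 and CXCL11. Pearson's r of log2(FPKM + 0.1) with GBP1 was 0.99995 for WARS, 0.99991 for CXCL9, 0.9999 for FAM155A, 0.99986 for IFIH1 and 0.9998 for CXCL11. The 8 libraries form 2 groups, so these values describe a shared difference between the groups and little else. WARS, the tryptophanyl-tRNA synthetase, averaged 722 FPKM with IFN-γ and 24.3 FPKM without it, and the other 4 genes were listed at 0 in all untreated libraries. CXCL9 and CXCL11, which are chemokines that attract T cells, averaged 39.5 and 11.0 FPKM with IFN-γ. IFIH1, a sensor of viral RNA, averaged 6.71 FPKM and FAM155A 24.9 FPKM with IFN-γ.

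Counts over all genes depended on scaling, and the GBP calls did not. In the deposited values 1809 genes were called higher and 1230 lower. Quantile normalization gave 1470 higher and 2564 lower, TPM 9442 and 20 with the median of all genes shifted by 0.79, and TPM without short RNA genes 1142 and 1767. In each of them the 6 tested GBP members were called higher, and GBP1 had the largest rise. The 6 members passed the filter only through the IFN-γ libraries, so their unchanged calls are no test of the scaling.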

How the data were processed

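RNA-seq of BE(2)-M17 cells was used, 4 IFN-γ and 4 untreated libraries, grouped by the treatment label, with replicate numbers from the titles. Per the labels' protocols, libraries started from 1 µg of total RNA and an unstranded kit. The authors deposited 1 table of FPKM, with genes in rows and libraries in columns. TopHat2, Cuffdiff and hg38 are named, per the submitters' processing notes. The sources used here do not give versions, options, the annotation or any scaling between libraries. FPKM is relative to the fragments counted, so a very abundant RNA can lower other values.

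The members, the gene lists and the rule for named genes were chosen with earlier results of these data known. All members and all cluster neighbours were named, then up to 4 called genes per list with the largest change, the genes ranked next to a member, and the 5 genes most correlated with GBP1. 1 gene named by that rule is not reported here. Marker and reference lists are given by counts and sums. The 10 reference genes were all tested, and 3 were called higher and 0 lower; of the neuroblastoma markers 12 were tested and 3 called higher, and of the fibroblast and epithelial markers 3 were tested and 2 called higher.

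Values were used as log2(FPKM + 0.1) and fitted with limma 3.58.1 in R 4.3.3 with a mean-variance trend, on the 13598 genes that averaged 0.5 FPKM or more. Tests were two-sided, p-values were adjusted by Benjamini-Hochberg over these genes, and the threshold was 0.05. Exact permutation tests used scipy 1.17.1. The fit was tested on simulated data. Alternatives were other constants (1 and 0.01), other filters (none and 1 FPKM), 4 other scalings, 2 other limma settings, a replicate block, and each library left out. Deviations of same-numbered libraries from their group means correlated only weakly (-0.0275, 0.0790, 0.0612 and 0.0614). The numbers come from the titles and were not taken as pairs. Depth came from the steps of low values and is approximate. Fragment numbers also assume a single transcript length per gene, such as 3687 bases for GBP2, and would differ for other annotated transcripts. Identity was computed with biopython 1.88 from GENCODE release 29 transcripts. Protein sequences were not used here.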

Additional observations from a re-analysis of the deposited data

Results flagged for a closer look

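Single libraries lay far from the other 3 of their group in 12 of the 64 groups of 4 values examined, by a gap larger than Dixon's 95% critical share of the group's range. Chance gives this in about 1 in 20 groups of continuous, normally distributed values. That rate does not apply to groups of a few fragments. A group with 3 libraries at 0 and 1 above 0 is always flagged, as were GBP6, GBP7 and APOL3. 3 of the 12 were GBP genes, all near 0 in untreated cells: GBP1 in untreated replicate 3 was at 0.0397 FPKM, with the next library at 0.0198, GBP6 in untreated replicate 3 was at 0.0120 with the others at 0, and GBP7 in untreated replicate 4 was at 0.0501 with the others at 0. By depth, each of these stands for about 1 or 2 fragments.

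IFN-γ replicate 4 was the far library in 3 groups: UBE2L6 at 231 FPKM (next 194), SEP15 at 92.4 FPKM (next 71.2) and DNM3 at 6.92 FPKM (next 8.44). Untreated replicate 1 was the far library in 4: DNM1 at 23.7 FPKM (next 21.5), SOCS1 at 0.173 FPKM (next 0.0582), JAK2 at 1.45 FPKM (next 1.81) and APOL3 at 0.0296 FPKM (others at 0). The remaining 2 were MX2 in untreated replicate 2, at 0.0173 FPKM (next 0.0203), and LMO4 in untreated replicate 3, at 2.95 FPKM (next 3.18). The MX2 values are near the floor, and untreated replicate 2 was the deepest untreated library. There 1 fragment on 1 kb was worth 0.0521 FPKM, against 0.0613 to 0.0626 FPKM in the other untreated libraries. What set these libraries apart was not tested.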

How the results depend on the processing

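The 6 tested GBP members were called higher under all 19 alternatives, and all 8 were called without a filter. Under each filter the 6 members passed only through the IFN-γ libraries, so their unchanged calls there add no support. With 1 library left out the log2 change ran from 12.1 to 12.2 for GBP1, 9.23 to 9.45 for GBP2, 7.16 to 7.35 for GBP3, 8.44 to 8.65 for GBP4, 7.86 to 7.91 for GBP5 and 8.29 to 8.51 for GBP1P1. Depth limits the untreated values, which rest on at most 33 fragments for GBP2 and 7 for each other member, and the size of the rises depends on the constant added.

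Counts moved mainly with TPM, where the median of all genes shifts upward by 0.79. TPM gave 9442 genes higher and 20 lower, 10 related GTPases higher and 0 lower, 8 CaaX enzymes, 12 neuroblastoma markers and 10 reference genes higher, and 11 cluster neighbours higher and 0 lower. In TPM the changes of DNM1 (0.34), LRRC8C (0.57) and HS2ST1 (0.74) turned positive. TPM without short RNA genes gave 1142 genes, 2 cluster neighbours and 0 CaaX enzymes higher, and 5 neuroblastoma markers lower. LRRC8D turned to -0.015 there, and the calls of LRRC8B (adjusted p = 0.0684), PKN2 (0.178), ZNF326 (0.508), DNM3 (0.211) and FNTA (0.109) were lost. Quantile normalization gave 2564 genes, 2 related GTPases, 6 neuroblastoma markers and 1 fibroblast or epithelial marker lower, and 0 CaaX enzymes higher, and ended the calls of ZNF326 (adjusted p = 0.325) and FNTA (0.118). Limma without the trend gave 0 CaaX enzymes higher, ended the calls of ZNF326 (adjusted p = 0.0599) and FNTA (0.0565), while the test without a filter gave 1 endothelial marker higher. With 1 library left out, CaaX enzymes called higher ran from 0 to 1 and lower from 0 to 1 (1 without IFN-γ replicate 1), neuroblastoma markers lower from 0 to 3 and reference genes lower from 0 to 1, both at their highest without IFN-γ replicate 4. The cause was not tested.

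The replicate block gave 1639 genes higher and 1017 lower, with 6 GBP members higher, and among the genes named it ended the ZNF326 call (adjusted p = 0.0542) and no other. IFN-γ replicates 2, 3 and 4 correlated best with the same-numbered untreated library (r = 0.0790, 0.0612 and 0.0614). IFN-γ replicate 1 correlated best with untreated replicate 3 (r = 0.0862). Correlations this weak do not settle whether the numbers mark pairs.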
